A study of Mus musculus with 4 samples.

Results

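The genes described are the solute carriers (SLC) of a mouse podocyte line that were counted often enough to be compared between IL-12 treatment and control. They were chosen by name and level: protein-coding genes whose symbol starts with Slc and a number, with at least 400 reads summed over all 4 libraries. This gave 162 genes out of 371 protein-coding Slc genes and 54532 genes in the whole table. The sum runs over both groups together, so it fixes the level of the members but not the difference between the groups. Close to the floor, however, a change in 1 group can decide whether a gene is a member. The members with the smallest sums were Slc25a14 with 429, Slc29a2 with 443 and Slc18b1 with 462 reads. The genes just under the floor were Slc26a6 with 387, Slc41a3 with 343 and Slc26a10 with 315 reads. In 2 members, Slc7a11 and Slc25a14, the libraries of 1 group summed to under 200 reads, so these reached the floor mainly through the other group. Of the 209 Slc genes under the floor, 80 had no read at all. The name also picked 4 genes that are not carriers: the adaptor proteins Slc9a3r1 and Slc9a3r2, Slc4a1ap and Slc7a6os.

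The cells were of the line MPC5, conditionally immortalized mouse podocytes that divide at a permissive temperature with interferon-γ and differentiate after both are withdrawn. The IL-12 treatment group was exposed to the cytokine for 6 h at 400 ng/ml, a dose given in the study's methods (2 libraries) and the control group received saline (2 libraries), without any genetic change between them. Whether separate cultures were sequenced is not stated, so the p-values measure the spread between these libraries, which may be technical. Total counts were 18355379 to 20098012 per library, and the members took 1.13% to 1.16% of them. Over the members, the chi-square between libraries divided by its degrees of freedom was 1.40 within the control group and 1.98 within the IL-12 treatment group, above the value of 1 that counting noise alone gives, against 17.2 to 21.5 between groups. In bulk RNA, fewer cells of a type and less RNA per cell cannot be told apart.

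The podocyte label was checked against 10 podocyte markers. Nphs1 (nephrin), a defining protein of the slit diaphragm, had 1 read over all libraries, Ptpro had 0, and Wt1 had 4 to 16 reads per library. Synpo, Podxl, Cd2ap, Actn4 and Magi2 were expressed. The summed level of the list was 2006 to 2018 CPM (reads scaled to a common library depth) in the control and 1928 to 1947 CPM in the IL-12 libraries. Sums of lists were scaled by total counts only. Single genes were scaled by TMM, with factors of 1.013 to 1.015 in the control and 0.985 to 0.987 in the IL-12 libraries. TMM would therefore bring the podocyte sums of the groups closer together. Synpo (synaptopodin) was lower with IL-12, with a log2 fold change of -0.66. Of the tubule markers, the carriers among them were at or near 0: Slc34a1 and Slc5a2 had 0 reads, Slc22a6 had 1, Slc12a1 had 4 and Slc12a3 had 11 over all libraries. The proximal tubule list summed to 642 to 670 CPM in the control and 510.5 to 552 CPM in the IL-12 libraries, nearly all of it from the endocytic receptor Lrp2 with 10086 to 12482 reads per library, which fell by 0.27 on the log2 scale (adjusted p = 8.7e-06, edgeR). The mesangial and fibroblast list summed to 70.1 to 80.6 CPM, with Pdgfrb higher (0.23) and Gata3 lower (-0.33). The summed endothelial markers stayed at or under 0.547 CPM and the leukocyte markers at or under 7.25 CPM in every library. The part of these marker levels in the results below was not tested.

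Solute carriers are membrane proteins that move nutrients, ions, metals, vitamins and metabolites across the plasma membrane or the membranes of organelles. Most do so by facilitated diffusion, by exchange of solutes, or by coupling to sodium or protons, and none of them uses ATP directly. In the kidney they are best known from the tubules, where they reabsorb glucose, amino acids and phosphate. Podocytes depend on housekeeping members for glucose, amino acids, ion balance and mitochondrial exchange.

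None of the 162 members passed both screening criteria (an adjusted p below 0.05 and a change over 2-fold) in the edgeR quasi-likelihood fit, with p adjusted by Benjamini and Hochberg, against 1.61% of all 14095 genes tested (0.858% higher, 0.752% lower) and 0.617% of the protein-coding genes with at least 400 reads. No member passed them in the DESeq2 Wald test or in limma voom either, and at an unadjusted p below 0.05 without a fold limit 91 members (56.2%) passed, against 39.4% of all genes tested and 48.3% of the protein-coding genes with at least 400 reads. Smaller changes were common. At an adjusted p below 0.05 and any fold, 38 members rose and 36 fell, or 45.7% of the members, compared with 30.5% of all genes tested and 38.7% of the protein-coding genes with the same floor of reads. In each direction the background over all genes tested was 16.1% higher and 14.4% lower, and over the protein-coding genes with the same floor 20.7% higher and 18% lower. The counts of classes, families and lists below stand beside these shares, and none was tested as a set. With scaling by total counts only, 33 members rose and 43 fell, and the share of higher genes among all genes past the threshold moved from 52.8% to 40.6%. On the log2 scale the members had a median change of 0.00 and all genes tested 0.00, and the median absolute change was 0.17 and 0.16. In all 74 members past the threshold the groups did not overlap in CPM, which was the case for 121 of the 162 members (61 higher, 60 lower), for 62.9% of all genes tested (31.7% higher, 31.2% lower) and for 69.6% of the protein-coding genes with the same floor. The changes were small: 34 of the 74 were under 0.30 and 15 were over 0.50 on the log2 scale. For comparison, the median difference between the 2 libraries of a group over the members was 0.058 in the control and 0.060 in the IL-12 treatment group on the same scale. Leaving out each library in turn, 40 of the 74 stayed past the threshold in all 4 fits, and 34 did not. For the latter, the highest adjusted p over these fits is given with the description of their class. With 2 libraries a group, the smallest two-sided p of an exact permutation test is 0.333. The values printed here therefore depend on the variance that edgeR pools over genes.

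**Figure D1:**
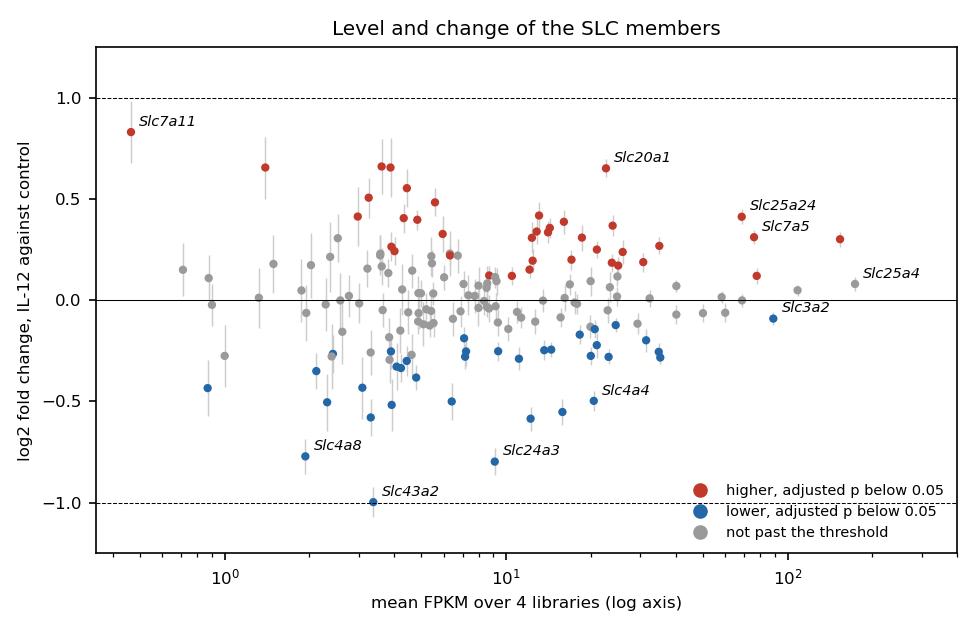
Mean FPKM over the 4 libraries (log axis) against the log2 fold change of IL-12 against control for the 162 members, with bars for 1 standard error (SE) and dashed lines at 2-fold. Red and blue points passed an adjusted p of 0.05. No point lies beyond the 2-fold lines, and Slc43a2 at -0.997 lies next to the lower line.

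Compared per gene length, in FPKM (reads scaled by gene length and library depth), the members' mean levels ran from 0.464 to 174, with a median of 7.28. The most abundant were mitochondrial carriers, which exchange metabolites across the inner membrane. Slc25a4 and Slc25a5, the ADP/ATP carriers, had 174 and 154 FPKM, and Slc25a3, the phosphate carrier, had 109 FPKM. The amino acid transporter subunits Slc3a2 and Slc7a5 followed with 89.0 and 76.0 FPKM, next to the zinc importer Slc39a1 with 77.7 FPKM. The potassium chloride cotransporter Slc12a4 and the ATP-Mg/phosphate carrier Slc25a24 had 68.9 and 68.7 FPKM. Of these 8 genes Slc25a24, Slc7a5, Slc25a5 and Slc39a1 rose, Slc3a2 fell (Slc39a1 and Slc3a2 not with every library left out), and Slc25a4, Slc25a3 and Slc12a4 did not pass the threshold.

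Amino acid carriers moved in both directions. Classes here and below follow the SLC family number alone, so single members may carry other substrates than the class name says. Of 21 members in the class of amino acids, peptides and related osmolytes, 4 rose, 7 fell and 10 did not pass, with a median log2 fold change of -0.09. The largest fall of all members was that of Slc43a2 (LAT4, a sodium-independent uniporter of large neutral amino acids, ENSMUSG00000038178, chromosome 11 from 75531694 to 75577575 in GRCm38). Slc43a2 had 44.8 and 45.5 CPM in the control libraries and 23.7 and 21.4 CPM in the IL-12 libraries. Both IL-12 libraries were far below both control libraries. The log2 fold change was -0.997 (standard error, SE, 0.07, adjusted p = 6.7e-09, edgeR), just inside the 2-fold limit, and it was past that limit with scaling by total counts (-1.04) or by the upper quartile (-1.01), and without control replicate 1 (-1.01) or IL-12 replicate 1 (-1.07). Slc7a5 (LAT1), which exchanges the same kind of amino acids, went the other way. It had 248 and 255 CPM in the control and 316 and 307 CPM in the IL-12 libraries, or 0.31 on the log2 scale (SE 0.03, adjusted p = 1.16e-06, edgeR). In reads, Slc7a5 exceeded Slc43a2 by 5.55 and 5.60 times in the control and by 13.3 and 14.3 times in the IL-12 libraries.

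Slc7a5 works as a heterodimer with the heavy chain Slc3a2 (CD98), which also pairs with Slc7a6 and Slc7a11. Slc3a2 had 324 and 324 CPM in the control and 308 and 300 CPM in the IL-12 libraries, or -0.09 on the log2 scale (adjusted p = 0.0402, edgeR). This small fall did not hold with the replicate block (adjusted p = 0.08) or with any library left out (up to 0.177). Slc7a6 stayed within its error at 0.02 (SE 0.05, adjusted p = 0.815, edgeR). Slc7a11 (xCT, the light chain that exchanges cystine for glutamate, ENSMUSG00000027737, chromosome 3 from 49892526 to 50443614) had the largest rise of all members. Its levels were low, with 4.59 and 4.72 CPM in the control and 8.75 and 7.79 CPM in the IL-12 libraries. In reads, its control libraries summed to 176 and its IL-12 libraries to 314. Slc7a11 thus reached the read floor mainly through the IL-12 treatment group. Its choice as a member, and so its rank among the rises, was not independent of its rise. The log2 fold change was 0.83 (SE 0.15, adjusted p = 0.000383, edgeR), and it did not pass on the log2(FPKM + 1) scale (0.26, adjusted p = 0.0509, limma) or the log2(FPKM + 0.1) scale (0.68, adjusted p = 0.0551, limma). A pseudocount understates the size of a change at this level. Why the adjusted p did not pass was not tested. Both of these limma fits also left fewer members past the threshold, 28 higher and 21 lower. As ratios of reads to Slc3a2, Slc7a5 went from 0.767 and 0.786 to 1.03 and 1.02, and Slc7a11 from 0.0142 and 0.0146 to 0.0284 and 0.0260.

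The promoter of Slc7a11 is shown because it holds the only copies of an amino acid response sequence among the promoters of members past the threshold. The sequence runs from 250 bases before to 50 bases after the RefSeq start on the minus strand of chr3:50443564-50443863 (GRCm38.p6), and the capitals mark TGATGNAA on either strand.
Slc7a11: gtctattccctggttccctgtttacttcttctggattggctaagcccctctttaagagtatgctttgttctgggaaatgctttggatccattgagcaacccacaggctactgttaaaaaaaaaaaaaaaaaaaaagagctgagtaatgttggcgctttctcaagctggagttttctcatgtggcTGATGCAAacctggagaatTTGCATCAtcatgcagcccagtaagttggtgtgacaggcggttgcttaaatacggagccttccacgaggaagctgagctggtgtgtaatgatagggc
Copies start 66 and 47 bases before the transcription start, on opposite strands. The motif stood in 3.97% of all 32851 promoters of that length, in 1 of 33 promoters of members that rose and in 0 of 44 of members that fell. Promoters were found for 128 of the 162 members, some with several starts.

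The sodium-coupled transporters of small neutral amino acids also split. Slc1a5 (ASCT2, a glutamine exchanger) had 58.2 and 57.7 CPM in the control and 71.7 and 80.0 CPM in the IL-12 libraries, or 0.39 on the log2 scale (SE 0.06, adjusted p = 3.95e-05, edgeR). Slc38a2 (SNAT2), a far more counted gene, fell from 341 and 344 CPM to 278 and 285 CPM, or -0.28 on the log2 scale (SE 0.03, adjusted p = 2.14e-06, edgeR). The groups did not overlap in either gene. Slc38a1 (SNAT1) had a log2 fold change of 0.12 (adjusted p = 0.0468, up to 0.445 with a library left out, edgeR). Among the other members, Slc6a17 fell by 0.38 on the log2 scale (adjusted p = 8.81e-05, edgeR). Slc36a1, the proton-coupled carrier of lysosomes, Slc38a6 and Slc6a8, the creatine transporter, had log2 fold changes of -0.25, -0.27 and -0.14, and each lost the threshold with a library left out (adjusted p up to 0.205, 0.204 and 0.111, edgeR). The cationic amino acid transporter Slc7a1 had 451 to 481 CPM in all libraries (adjusted p = 0.085, edgeR).

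The osmolyte carriers Slc5a3 and Slc6a6 are targets of the tonicity factor NFAT5. Slc5a3 (SMIT1, which takes up myo-inositol) had 86.8 and 84.0 CPM in the control and 65.0 and 76.1 CPM in the IL-12 libraries. It fell by 0.28 on the log2 scale (SE 0.06, adjusted p = 0.0017, edgeR) and lost the threshold without IL-12 replicate 1 (adjusted p = 0.0848), and it shares 159 exonic bases with Mrps6 on the same strand. Slc6a6 (the taurine transporter) had 479 to 502 CPM in all 4 libraries, with a log2 fold change of 0.01 (SE 0.03, adjusted p = 0.773, edgeR). Of 7 other tested genes of the osmotic response, 5 fell and 0 rose, Nfat5 itself by 0.45 on the log2 scale. Of 21 tested genes of the amino acid response through ATF4 that are not carriers, 9 rose and 3 fell. Over all genes tested, 16.1% rose and 14.4% fell, and neither list was tested as a set. Atf4 had a log2 fold change of 0.24 and Asns of 0.32, while Atf3 and Vldlr had -0.63 and -0.45.

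Of 22 members in the class of inorganic ions, 11 fell, 5 rose and 6 did not pass, with a median log2 fold change of -0.19. At the same read floor, 18% of the protein-coding genes fell and 20.7% rose. Slc24a3 (NCKX3, which extrudes calcium and potassium in exchange for sodium, ENSMUSG00000063873, chromosome 2 from 145167754 to 145642166) fell the most. It had 54.3 and 51.2 CPM in the control and 29.5 and 31.2 CPM in the IL-12 libraries, or -0.80 on the log2 scale (SE 0.07, adjusted p = 3.31e-08, edgeR). The groups were well apart. Slc8b1 (NCLX, the sodium-calcium exchanger of mitochondria) had -0.50 on the log2 scale (SE 0.09, adjusted p = 0.00031, edgeR). The plasma membrane exchanger Slc8a1 did not pass, at -0.06 (SE 0.11, adjusted p = 0.733, edgeR).

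All 6 members of the SLC4 family, most of which carry bicarbonate, passed the threshold, 4 of them lower and 2 higher. At the same read floor, 38.7% of the protein-coding genes passed it. Slc4a8 (NDCBE, the sodium-driven chloride bicarbonate exchanger) had 33.7 and 29.8 CPM in the control and 18.8 and 18.4 CPM in the IL-12 libraries, or -0.77 on the log2 scale (SE 0.09, adjusted p = 1.49e-06, edgeR). Slc4a4 (NBCe1, the electrogenic sodium bicarbonate cotransporter) was more abundant and fell from 262 and 257 CPM to 171 and 196 CPM, or -0.50 on the log2 scale (SE 0.05, adjusted p = 2.3e-07, edgeR). The anion exchangers Slc4a2 and Slc4a3 (AE2 and AE3) fell by 0.28 and 0.34 on the log2 scale (adjusted p = 9.76e-06 and 0.000741, edgeR). Slc4a2 shares 1141 exonic bases with Fastk on the opposite strand, so its value is uncertain, as no source says that reads were counted by strand. In contrast, Slc4a7 (NBCn1, the electroneutral cotransporter) rose from 64.1 and 62.7 CPM to 84.7 and 82.3 CPM, or 0.40 on the log2 scale (SE 0.05, adjusted p = 5.89e-06, edgeR). Slc4a11, an atypical member of the family, rose by 0.51 (SE 0.10, adjusted p = 0.000595, edgeR). The ratio of Slc4a7 to Slc4a4 reads was 0.245 and 0.245 in the control and 0.494 and 0.419 in the IL-12 libraries.

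The cation chloride cotransporters (SLC12) set cell chloride and volume, with sodium-coupled members taking chloride up and potassium-coupled members letting it out. Slc12a2 (NKCC1), the sodium-coupled member, had 108 and 99.3 CPM in the control and 117 and 121 CPM in the IL-12 libraries. Its log2 fold change was 0.20 (SE 0.05, adjusted p = 0.00375, edgeR), with an adjusted p up to 0.0844 with a library left out. The potassium-coupled Slc12a7 (KCC4) fell from 199 and 198 CPM to 167 and 168 CPM, or -0.24 on the log2 scale (SE 0.04, adjusted p = 5.37e-05, edgeR). Slc12a9 had -0.25, with an adjusted p of 0.0107 (up to 0.134 with a library left out, edgeR). Slc12a4 (KCC1), the most abundant of the family, had 292 to 298 CPM in all libraries and a log2 fold change of 0.00 (SE 0.03, adjusted p = 0.991, edgeR). Among the kinases that act on these cotransporters, Wnk1 and Stk39 (SPAK) rose by 0.32 and 0.66 on the log2 scale, Wnk4 fell by 0.59, and Oxsr1 did not pass (-0.05). These belong to 15 tested ancillary subunits and regulators of carriers, of which 3 rose and 5 fell. The third to rise was Sgk1 with 0.65, and Nedd4l, a ubiquitin ligase for transporters and channels, fell by 0.58.

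Slc20a1 (PiT-1, a sodium-phosphate cotransporter, ENSMUSG00000027397, chromosome 2 from 129198764 to 129211616) had 99.6 and 96.9 CPM in the control and 158 and 151 CPM in the IL-12 libraries. Its log2 fold change of 0.65 (SE 0.05, adjusted p = 2.59e-09, edgeR) had the smallest p of all members. Its paralogue Slc20a2 (PiT-2) had 106 to 114 CPM in all libraries and -0.02 (SE 0.05, adjusted p = 0.822, edgeR). The ratio of Slc20a1 to Slc20a2 reads was 0.908 and 0.854 in the control and 1.49 and 1.32 in the IL-12 libraries. The sodium-proton exchangers Slc9a5 and Slc9a8, the latter of the Golgi, had log2 fold changes of -0.29 and 0.24 (adjusted p = 0.000625 and 0.0106, edgeR), and that of Slc9a8 reached an adjusted p of 0.124 with a library left out. Slc26a11, a chloride and sulfate carrier, had -0.50 (adjusted p = 0.0107, up to 0.137, edgeR).

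The promoters of Slc20a1, Slc25a33, Slc43a2 and Slc24a3 are shown as those of members with large changes in either direction. Each runs from 250 bases before to 50 bases after the RefSeq start on its own strand (GRCm38.p6), and the capitals mark the E-box CACGTG. The regions are chr2:129198523-129198822 on the plus strand for Slc20a1, chr4:149774218-149774517 on the minus strand for Slc25a33, chr11:75531444-75531743 on the plus strand for Slc43a2 and chr2:145167525-145167824 on the plus strand for Slc24a3.
Slc20a1: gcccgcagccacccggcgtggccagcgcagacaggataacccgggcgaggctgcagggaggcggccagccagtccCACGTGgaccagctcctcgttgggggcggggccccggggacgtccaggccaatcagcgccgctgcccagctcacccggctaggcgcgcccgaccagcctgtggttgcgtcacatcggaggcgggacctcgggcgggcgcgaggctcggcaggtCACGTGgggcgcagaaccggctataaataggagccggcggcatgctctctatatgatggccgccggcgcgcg
Slc25a33: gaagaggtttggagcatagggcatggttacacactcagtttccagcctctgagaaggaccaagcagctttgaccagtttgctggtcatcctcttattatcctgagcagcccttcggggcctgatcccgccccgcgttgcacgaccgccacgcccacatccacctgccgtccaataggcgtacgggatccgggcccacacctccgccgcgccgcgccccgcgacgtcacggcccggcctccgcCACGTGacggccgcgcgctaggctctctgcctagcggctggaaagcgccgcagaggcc
Slc43a2: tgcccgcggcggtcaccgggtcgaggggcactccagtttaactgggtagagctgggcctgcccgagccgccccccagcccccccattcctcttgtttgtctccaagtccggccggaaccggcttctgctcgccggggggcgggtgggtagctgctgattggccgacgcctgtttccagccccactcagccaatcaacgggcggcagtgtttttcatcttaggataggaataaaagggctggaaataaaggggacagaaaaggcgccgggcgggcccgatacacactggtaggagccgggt
Slc24a3: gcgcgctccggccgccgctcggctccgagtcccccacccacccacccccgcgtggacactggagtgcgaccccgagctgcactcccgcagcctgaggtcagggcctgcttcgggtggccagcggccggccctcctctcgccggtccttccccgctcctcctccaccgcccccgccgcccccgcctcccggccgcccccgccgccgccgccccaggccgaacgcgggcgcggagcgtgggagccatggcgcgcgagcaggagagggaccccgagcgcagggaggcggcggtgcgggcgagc
Slc20a1 held copies starting 175 and 22 bases before the start and Slc25a33 held 1 copy 8 bases before it, while these letters were not in the windows of Slc43a2 and Slc24a3. The E-box stood in 7.15% of all promoters. Among members that rose it stood in 5 of 33 promoters (15.2%, from 27 genes). Among those that fell it stood in 9 of 44 (20.5%, from 29 genes), and among the others in 8 of 88 (9.09%, from 72 genes). It was thus found on both sides. These are counts of promoters, and a gene with several starts is counted more than once. The AP-1 sequence TGANTCA stood in 7.81% of all promoters, in 1 of 33 of members that rose and in 3 of 44 of members that fell. The motifs were chosen with the results known.

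**Figure D2:**
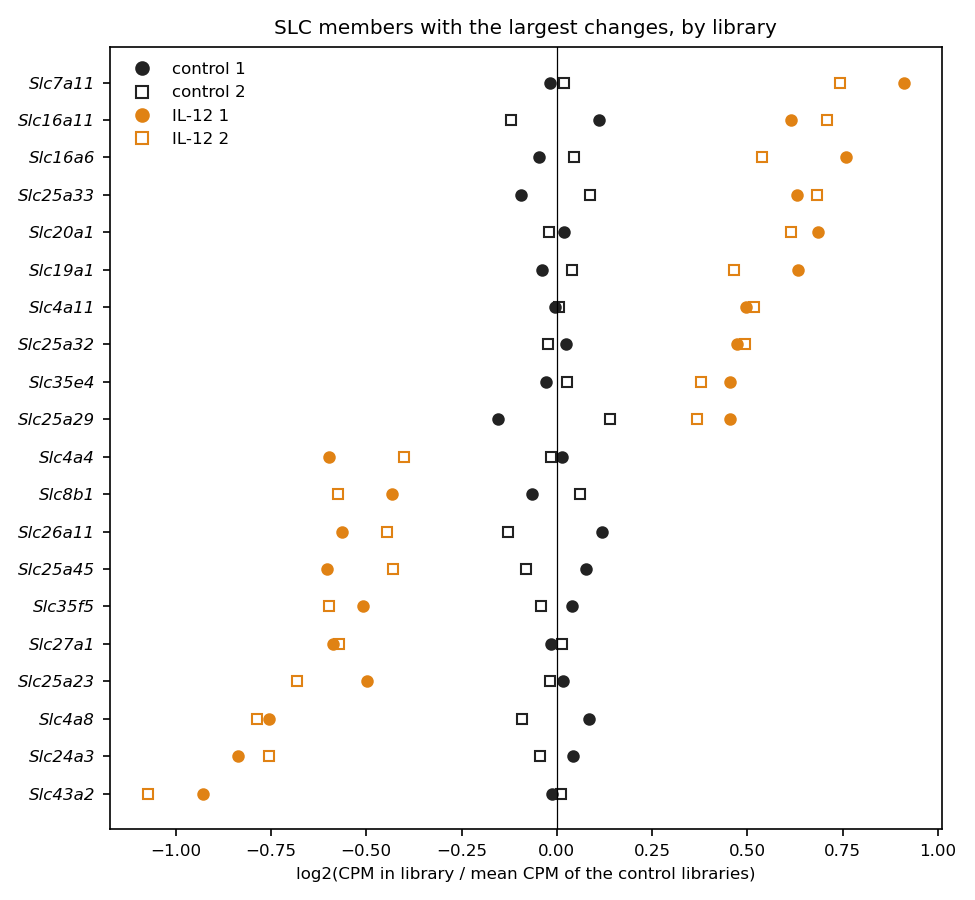
Each library's CPM relative to the mean of the control libraries (log2 scale) for the 10 members with the largest rises and the 10 with the largest falls among those past an adjusted p of 0.05. Filled circles are replicate 1 and open squares replicate 2, black for control and orange for IL-12, and the groups are apart in all 20 genes, with the narrowest gap in Slc25a29. Slc7a11 reached the read floor mainly through the IL-12 treatment group.

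Mitochondrial carriers (SLC25) were the largest class, with 34 members, of which 8 rose, 6 fell and 20 did not pass. Their summed level was 839 FPKM in the control and 895 FPKM in the IL-12 treatment group. The calcium-regulated ATP-Mg/phosphate carriers set the adenine nucleotide pool of mitochondria. Slc25a24 had 204 and 200 CPM in the control and 275 and 263 CPM in the IL-12 libraries, or 0.41 on the log2 scale (SE 0.04, adjusted p = 7.46e-08, edgeR). Slc25a25 rose by 0.41 as well (SE 0.07, adjusted p = 0.000234, edgeR), but it shares 379 exonic bases with Naif1 on the opposite strand and is uncertain. Slc25a23, the remaining paralogue among the members, fell from 78.5 and 76.7 CPM to 54.9 and 48.4 CPM, or -0.58 on the log2 scale (SE 0.06, adjusted p = 4.26e-07, edgeR). The ratio of Slc25a24 to Slc25a23 reads was 2.60 and 2.61 in the control and 5.003 and 5.44 in the IL-12 libraries. This follows from their opposite changes and is a description only.

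The pyrimidine nucleotide carriers Slc25a33 and Slc25a36 also differed in sign. Slc25a33 had 5.33 and 6.04 CPM in the control and 8.80 and 9.12 CPM in the IL-12 libraries, or 0.66 on the log2 scale (SE 0.15, adjusted p = 0.00183, edgeR). Slc25a36 fell from 100 and 95.3 CPM to 81.2 and 82.8 CPM, or -0.25 on the log2 scale (SE 0.05, adjusted p = 0.000507, edgeR). Of the aspartate-glutamate carriers of the malate-aspartate shuttle, Slc25a13 (citrin) had 0.34 (SE 0.06, adjusted p = 0.000225, edgeR) and Slc25a12 (aralar) -0.19 (SE 0.06, adjusted p = 0.0166, up to 0.122 with a library left out). Slc25a11, the oxoglutarate carrier of the same shuttle, had -0.20 (adjusted p = 0.0107, up to 0.196, edgeR). It shares 189 exonic bases with Rnf167 on the opposite strand and is uncertain as well. Of the ADP/ATP carriers, Slc25a5 (ANT2) rose from 223 and 230 CPM to 287 and 271 CPM, a log2 fold change of 0.30 (adjusted p = 5.65e-06, edgeR), while Slc25a4 (ANT1) had 386 to 429 CPM and 0.08 (adjusted p = 0.0892, edgeR). Slc25a32, which carries folate and FAD, and Slc25a37 (mitoferrin-1, which imports iron) rose by 0.48 and 0.36 (adjusted p = 2.54e-05 and 2.3e-05, edgeR). The remaining members past the threshold were Slc25a29 with 0.41, Slc25a45 with -0.52 and Slc25a51, the NAD carrier, with -0.17, and each lost it with a library left out (adjusted p up to 0.31, 0.0837 and 0.0984, edgeR).

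**Figure D3:**
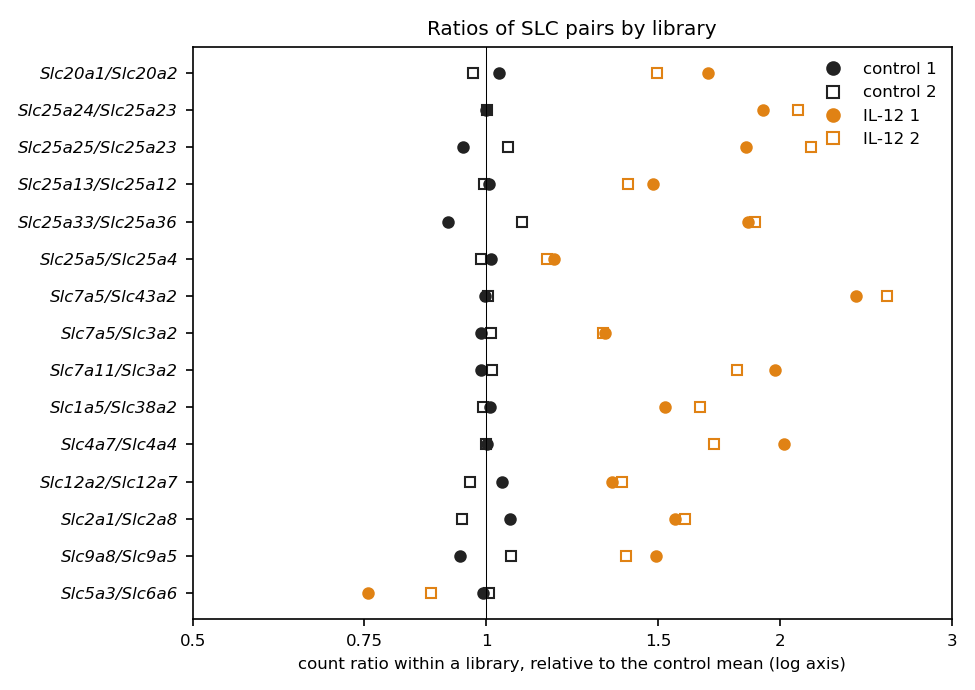
Ratio of raw reads of 15 pairs of carriers within each library, relative to the mean of the control libraries (log axis), with symbols for replicates 1 and 2 and colours for control (black) and IL-12 (orange). The pairs were chosen after their values were seen, so that the groups are apart is a description. The largest shift is that of Slc7a5 to Slc43a2.

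Of 7 members in the class of sugars and polyols, 1 rose and 1, the inositol carrier Slc5a3 described above, fell. Slc2a1 (GLUT1, the facilitative glucose transporter) had 73.9 and 72.4 CPM in the control and 97.9 and 90.8 CPM in the IL-12 libraries, or 0.37 on the log2 scale (SE 0.05, adjusted p = 1.81e-05, edgeR). Slc2a8 did not pass, with -0.29 (adjusted p = 0.0617, edgeR). Of 6 members of the SLC16 (monocarboxylate carrier) family, 4 rose and 0 fell, against 20.7% and 18% of the protein-coding genes with at least 400 reads. Slc16a1 (MCT1, a proton-coupled lactate and pyruvate carrier) went from 57.0 and 53.3 CPM to 70.9 and 68.1 CPM, a log2 fold change of 0.34 (adjusted p = 0.000119, edgeR), while its chaperone Bsg (basigin) had -0.06 (adjusted p = 0.183, edgeR) and Emb, at 24 to 36 reads per library, -0.43 (adjusted p = 0.353, edgeR). Slc16a11 and Slc16a6 had 0.66 and 0.66, and Slc16a13 had 0.31, with an adjusted p of 0.00091, 0.00274 and 0.0043 (edgeR). Slc16a6 shares 1052 exonic bases with the more abundant Amz2 on the opposite strand and is uncertain, and Slc16a6 and Slc16a13 reached an adjusted p of 0.0686 and 0.0842 with a library left out. Slc27a1 (FATP1, which promotes fatty acid uptake) had 22.9 and 23.3 CPM in the control and 15.4 and 15.5 CPM in the IL-12 libraries, or -0.58 on the log2 scale (SE 0.09, adjusted p = 7.4e-05, edgeR). Slc27a3 and Slc27a4 did not pass.

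Vitamin carriers of the SLC19 family both rose. Slc19a1, the reduced folate carrier, had 16.3 and 17.2 CPM in the control and 25.9 and 23.1 CPM in the IL-12 libraries, or 0.55 on the log2 scale (SE 0.09, adjusted p = 0.00016, edgeR). Slc19a2, a thiamine transporter, rose from 122 and 122 CPM to 145 and 149 CPM, a log2 fold change of 0.27 (adjusted p = 6.75e-05, edgeR). The proton-coupled folate transporter Slc46a1 did not pass, with 0.17 (adjusted p = 0.468, edgeR). In the same class of 15 members, Slc22a23 fell by 0.28 (adjusted p = 6.94e-05, edgeR) and the choline transporter-like Slc44a2 had -0.12 (adjusted p = 0.014, up to 0.111 with a library left out, edgeR).

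Of 22 members in the class of metals and heme, 7 rose and 3 fell, against 20.7% and 18% of the protein-coding genes with at least 400 reads. The rises were in zinc carriers, 5 of 9 importers of the SLC39 (ZIP) family and 2 of 6 members of the SLC30 (ZnT) family, and were at most 0.33 on the log2 scale. Slc39a10 had 117 and 116 CPM in the control and 138 and 140 CPM in the IL-12 libraries, or 0.25 on the log2 scale (SE 0.04, adjusted p = 0.000147, edgeR), and with Slc30a7 (0.22, adjusted p = 0.00252, edgeR) it kept the threshold with each library left out. Slc39a11, Slc39a13, Slc39a14, Slc39a1 and Slc30a9 had 0.33, 0.18, 0.15, 0.12 and 0.12, and lost it (adjusted p up to 0.066, 0.0582, 0.128, 0.209 and 0.36, edgeR). Slc30a1, the zinc exporter of the plasma membrane, did not pass (0.31, adjusted p = 0.0598, edgeR). The falls were in Slc48a1 (which moves heme out of endolysosomes) with -0.26 (adjusted p = 0.000302, edgeR), Slc31a2 (a copper carrier) with -0.22 (adjusted p = 0.0108, up to 0.114, edgeR) and Slc40a1 (ferroportin, the iron exporter) with -0.43 (adjusted p = 0.022, up to 0.111, edgeR). Slc48a1 and Slc39a13 overlap more abundant genes on the opposite strand, Hdac7 over 29 and Psmc3 over 215 exonic bases.

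Golgi and endoplasmic reticulum carriers supply nucleotide sugars and other substrates for glycosylation. Of 26 members, 6 rose, 5 fell and 15 did not pass. Slc35f5 had the smallest p of the class, with 57.3 and 54.2 CPM in the control and 39.1 and 36.8 CPM in the IL-12 libraries, or -0.55 on the log2 scale (SE 0.06, adjusted p = 1.67e-06, edgeR). Slc35e4 rose by 0.42 (adjusted p = 7.09e-05, edgeR) and Slc35a1, the CMP-sialic acid transporter, by 0.31 (adjusted p = 0.00102, edgeR). Slc37a3 fell by 0.25 (adjusted p = 0.000854, edgeR). Slc35d1, Slc35b1, Slc35a4 and Slc35e1 had 0.26, 0.24, 0.19 and 0.17, and Slc35a5, Slc35f3 and Slc37a4 (the glucose-6-phosphate transporter) had -0.30, -0.43 and -0.33. These 7 lost the threshold with a library left out, with an adjusted p up to 0.0605 to 0.304. The vesicular and lysosomal members Slc17a5 and Slc18b1 did not pass, with -0.27 and 0.05 (adjusted p = 0.0593 and 0.86, edgeR). Of the non-carriers, Slc7a6os had 0.20 (adjusted p = 0.0126, up to 0.11, edgeR) and the other 3 did not pass.

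**Figure D4:**
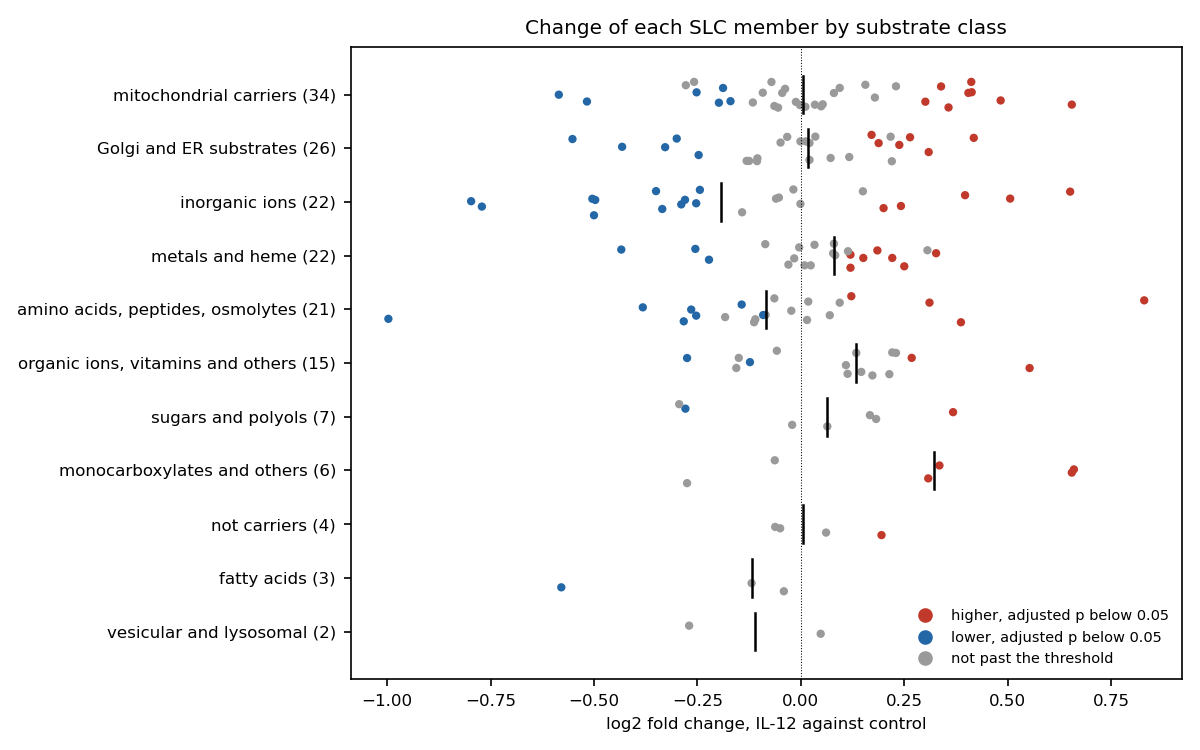
Log2 fold change of IL-12 against control for each member by substrate class, with the number of members in parentheses, the median as a black bar, and red or blue for members past an adjusted p of 0.05. The inorganic ion class has its median at -0.19 and the monocarboxylate class at 0.32, and most classes hold changes in both directions.

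Other transporter families were counted in the same fit. Of 13 organic anion transporters of the SLCO family, 5 were tested, of which 2 rose and 1 fell. Of 37 ABC transporters, which use ATP, 23 were tested, of which 2 rose and 7 fell. Over all genes tested, 16.1% rose and 14.4% fell. Among the Slc genes under the floor, 40 were tested, none rose and 4 fell, all of them over 2-fold and at 88 to 210 reads over the 4 libraries, namely Slc6a18, Slc46a3, Slc22a17 and Slc22a18.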

How the data were processed

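RNA-sequencing of 2 control and 2 IL-12 libraries was analysed. The authors deposited raw counts per gene, without normalization, and FPKM values, which equal counts scaled by gene length and depth times a factor of 0.985 to 1.02 per library. Per the labels, HISAT2, StringTie and mm9 were named without a role. The deposited coordinates equal those of GENCODE M21 (GRCm38) for 98.3% of 54495 shared genes, and GRCm38 is used here. Reads shared between genes could not be reassigned.

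The counts went into edgeR 4.0.16 (R 4.3.3): filterByExpr (minimum 10 counts, 15 in total, 14095 genes kept, all 162 members among them), TMM scaling, and the quasi-likelihood test with Benjamini-Hochberg adjustment over all genes tested. CPM values of single genes are scaled by TMM, and summed CPM of marker lists by total counts only. Standard errors are the log2 fold change over the square root of F. Alternatives were DESeq2 1.42.0, limma 3.58.1 voom and limma on log2(FPKM + 1) or log2(FPKM + 0.1), other scalings and filters, a replicate block, each library left out, other read floors and a 1.5-fold limit. A floor of 3 counts is 0.149 to 0.163 CPM and covers counting error only. Promoters are from RefSeq (GRCm38.p6). Figures were drawn with matplotlib 3.10.9.

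Members, classes and lists were chosen with earlier results of these data known. Classes were assigned by SLC family number, not by the substrate of each member. Named by rule were the 10 largest changes in each direction past the adjusted p with groups apart, the 8 highest mean FPKM, heterodimer partners, members next to the floor and the smallest p of each class. Other named members were chosen after their values were seen, as were the pairs for ratios and the split into carriers and 4 non-carriers. Replicate numbers are shared between groups, but same-numbered libraries did not deviate together (correlation across genes -0.0297), so the block was an alternative only. Some genes of the member and marker lists are counted in the totals but not reported here by name.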

Additional observations from a re-analysis of the deposited data

How the results depend on the processing

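The 38 members that rose and 36 that fell became 40 and 36 with the replicate block, of which 72 were among the 74, and the block called 0 members over 2-fold. Of the 74, 38 kept their direction and threshold in all 14 alternative fits and 0 reversed. On log2(FPKM + 1) or log2(FPKM + 0.1), 28 rose and 21 fell in each, and in the DESeq2 Wald test 29 rose and 24 fell. Leaving out a library gave 25 to 35 that rose and 19 to 29 that fell. Without IL-12 replicate 1 the numbers were 25 and 19, without IL-12 replicate 2 they were 29 and 26, without control replicate 1 they were 35 and 24, and without control replicate 2 they were 35 and 29. These fits rest on 3 libraries, with the lone library assumed to vary like the other group. The count over 2-fold was 0 as reported and 1 (Slc43a2) with upper-quartile scaling and with total counts only, and 0 to 1 with a library left out. With a floor of 200 reads it was 1 (Slc6a18) and with a 1.5-fold limit it was 8. Among the members named here that were not past the threshold, some values changed sign. Slc12a4 did so with both FPKM scales (0.001 and 0.001) and with a library left out (-0.014 to 0.015). Slc6a6 did so with upper-quartile scaling (-0.001), total counts (-0.026) and a library left out (-0.019 to 0.052). With a library left out, so did Slc18b1 (-0.018 to 0.119), Slc20a2 (-0.071 to 0.036), Slc27a4 (-0.110 to 0.029) and Slc9a3r2 (-0.121 to 0.017). Slc7a6 did so with total counts (-0.022) and with a library left out (-0.024 to 0.064). This list is not complete. Other members not past the threshold changed sign as well, such as Slc25a44, Slc37a2 and Slc39a6 in 4 of the 14 alternative fits each. The causes were not tested. Low members such as Slc7a11 rest on few reads (87 to 173 per library for this gene), and no level near 3 counts was compared.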
